A study of Saccharomyces cerevisiae with 15 samples.

Results

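The 10 genes described here encode amino acid permeases of the yeast plasma membrane. GAP1 (YKR039W), AGP1 (YCL025C), BAP2 (YBR068C), BAP3 (YDR046C), TAT1 (YBR069C), TAT2 (YOL020W), MUP1 (YGR055W), MUP3 (YHL036W), LYP1 (YNL268W) and DIP5 (YPL265W) were taken by their systematic IDs from the 6692 genes counted, and all 10 passed the filter on low counts (10 counts or more in 3 or more of 15 samples) that left 6588 genes for testing. They were chosen by name as amino acid permeases, with no threshold on a measured value, but with earlier results of these data known.

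All cultures were of Saccharomyces cerevisiae strain L40, a mat-a reporter strain with mutant alleles of leu2, trp1 and ade2 and a his deletion, with lexA operator reporters at LYS2 and URA3. They were grown in SD-L, a synthetic medium without leucine, all with 0.4% DMSO, and were collected after 1 hour, with 3 biological replicates for each of 5 conditions. Cells with the empty vector pL220 received Curcumin at 200 µM or CPTH2 at 400 µM, compounds used as inhibitors of histone acetyltransferases, or DMSO alone as the control. The scFv-58F cells expressed, from pL220, an HA-tagged intrabody (an antibody fragment made inside the cell) directed at acetylated lysine 9 of histone H3, and the scFv-645 cells an unrelated intrabody against mouse neuroligin 2. The drugs were given at different doses, and every comparison with DMSO used the same 3 DMSO samples, so these comparisons are not independent of each other.

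Yeast takes up amino acids through a family of proton-coupled permeases with overlapping substrates. Transcription of the broad-range permeases follows the nitrogen source through GATA factors, which bind GATAAG elements, whereas several permeases for bulky and branched-chain amino acids are switched on when the SPS sensor at the cell surface detects external amino acids and releases the factors Stp1 and Stp2. Gcn4, the activator of amino acid synthesis under starvation, binds TGACTC, and Cbf1, a factor of the methionine genes, binds CACGTG. The level of a permease at the membrane also depends on its exit from the endoplasmic reticulum and on ubiquitin-driven removal, which RNA counts do not show.

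Between 9062694 and 18878167 reads per library fell on genes. The third Curcumin library stood apart: its Euclidean distance over the log2 CPM (counts scaled to library size) of all tested genes was 85.9 and 63.5 to the other Curcumin libraries, which were 40.1 apart, against 14.1 to 26.9 within the other conditions. For the 10 genes, the log2 fold changes with Curcumin are therefore also given without it. The 10 genes took 0.237%, 0.281% and 0.158% of the counts in the Curcumin samples and 0.0997% to 0.111% in the CPTH2 samples. Their share was 0.170% to 0.183% in the scFv-58F samples, 0.153% to 0.199% in the scFv-645 samples and 0.168% to 0.178% in the DMSO samples. Counts are relative to each library, so a change in the total RNA per cell was not measured.

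The genes lie on 9 chromosomes. All coordinates are of the R64 (sacCer3) build and cover the coding sequence. GAP1 lies at chrXI:515063-516871, AGP1 at chrIII:76018-77919 and BAP3 at chrIV:548762-550576. MUP1 lies at chrVII:599417-601141, MUP3 at chrVIII:26241-27881 and TAT2 at chrXV:286172-287950. LYP1 lies at chrXIV:138550-140385 and DIP5 at chrXVI:41043-42869. BAP2 (chrII:373861-375690) and TAT1 (chrII:376574-378433) are neighbours on the same strand with 883 bases between their coding sequences. None of the 10 overlaps another counted gene. BAP2 and BAP3 are the most similar pair, with 70.0% nucleotide identity over the aligned coding sequences, and no stretch of 51 bases, the read length, of any of the 10 occurs elsewhere in the genome.

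Promoter stretches are shown for the 6 genes that hold a searched motif, which include the 5 genes called with Curcumin. In the 600 bases upstream of the start codon, on both strands, GATAAG was found in GAP1 at 5 sites, in AGP1 at 2 and in MUP3 at 2, thus in 3 of 10 genes against 26.9% of 5983 promoters of the same length. TGACTC was found in AGP1, BAP2, MUP1 and MUP3, against 15.3% of promoters. Letters like those of the elements in SPS-responsive promoters, CGGCTC, were found in BAP2, BAP3 and MUP1, against 8.0% of promoters. CACGTG was found in MUP3 alone of the 10, against 7.3%. None of the 4 motifs was found in the windows of TAT1, TAT2, LYP1 and DIP5. The motifs do not overlap each other at these sites, and a match of letters is not evidence of a bound site. The stretches below are from the reference genome, 5′ to 3′ on the strand of the gene, with the motif letters, or their reverse complement, in capitals.
GAP1 chrXI:514710-514836, plus strand, 3 of its GATAAG sites: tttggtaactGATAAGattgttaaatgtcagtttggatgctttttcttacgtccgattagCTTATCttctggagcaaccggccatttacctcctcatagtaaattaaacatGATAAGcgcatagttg
AGP1 chrIII:78333-78366, minus strand, TGACTC read on the other strand and GATAAG: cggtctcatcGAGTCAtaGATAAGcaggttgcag
BAP2 chrII:376080-376105, minus strand, CGGCTC: ccgcttctcaCGGCTCatattttgtg
BAP3 chrIV:550922-550992, minus strand, CGGCTC on both strands: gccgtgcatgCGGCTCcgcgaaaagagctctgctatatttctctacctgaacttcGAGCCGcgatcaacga
MUP1 chrVII:599135-599263, plus strand, TGACTC on both strands: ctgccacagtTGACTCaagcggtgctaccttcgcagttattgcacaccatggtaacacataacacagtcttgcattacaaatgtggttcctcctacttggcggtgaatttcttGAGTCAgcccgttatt
MUP3 chrVIII:25722-25794, plus strand, GATAAG read on the other strand and CACGTG: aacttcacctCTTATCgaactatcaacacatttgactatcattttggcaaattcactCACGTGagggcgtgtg

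In the DMSO control the general permease GAP1 had the highest level of the 10, with 293 ± 19.3 CPM per kb of coding length (SD, n = 3), at the 89.9th percentile of all tested genes. AGP1, a broad-range permease for asparagine, glutamine and many other amino acids, followed with 189 ± 6.30 CPM per kb, and BAP2, which carries leucine, isoleucine and valine, with 160 ± 5.62 CPM per kb. DIP5, the glutamate and aspartate permease, had 97.0 ± 4.24 CPM per kb. BAP3 (73.1 ± 4.46 CPM per kb) and the lysine permease LYP1 (66.1 ± 4.50 CPM per kb) overlapped in their samples, as did the tryptophan and tyrosine permease TAT2 (37.7 ± 2.58 CPM per kb) and the high-affinity methionine permease MUP1 (35.0 ± 0.824 CPM per kb). TAT1, a permease for tyrosine, valine, leucine and isoleucine, had 24.9 ± 2.10 CPM per kb, and MUP3, the low-affinity methionine permease, had the lowest level with 9.04 ± 1.21 CPM per kb, at the 12th percentile.

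The order of the levels differed between conditions. BAP2 had the highest level per kb in the Curcumin samples (322 ± 116 CPM per kb) and the CPTH2 samples (161 ± 9.57 CPM per kb), while GAP1 had the highest in the scFv-58F samples (434 ± 34.4 CPM per kb), in the scFv-645 samples (360 ± 47.2 CPM per kb) and in the DMSO samples. MUP1 stood second in the Curcumin samples, where its range of 103 to 274 CPM per kb overlapped that of BAP2, and eighth in the DMSO samples. The ratio of the highest to the lowest mean level was 10.97 with Curcumin and 14.7 with CPTH2, against 42.1 with scFv-58F, 40.2 with scFv-645 and 32.4 with DMSO.

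**Figure D1:**
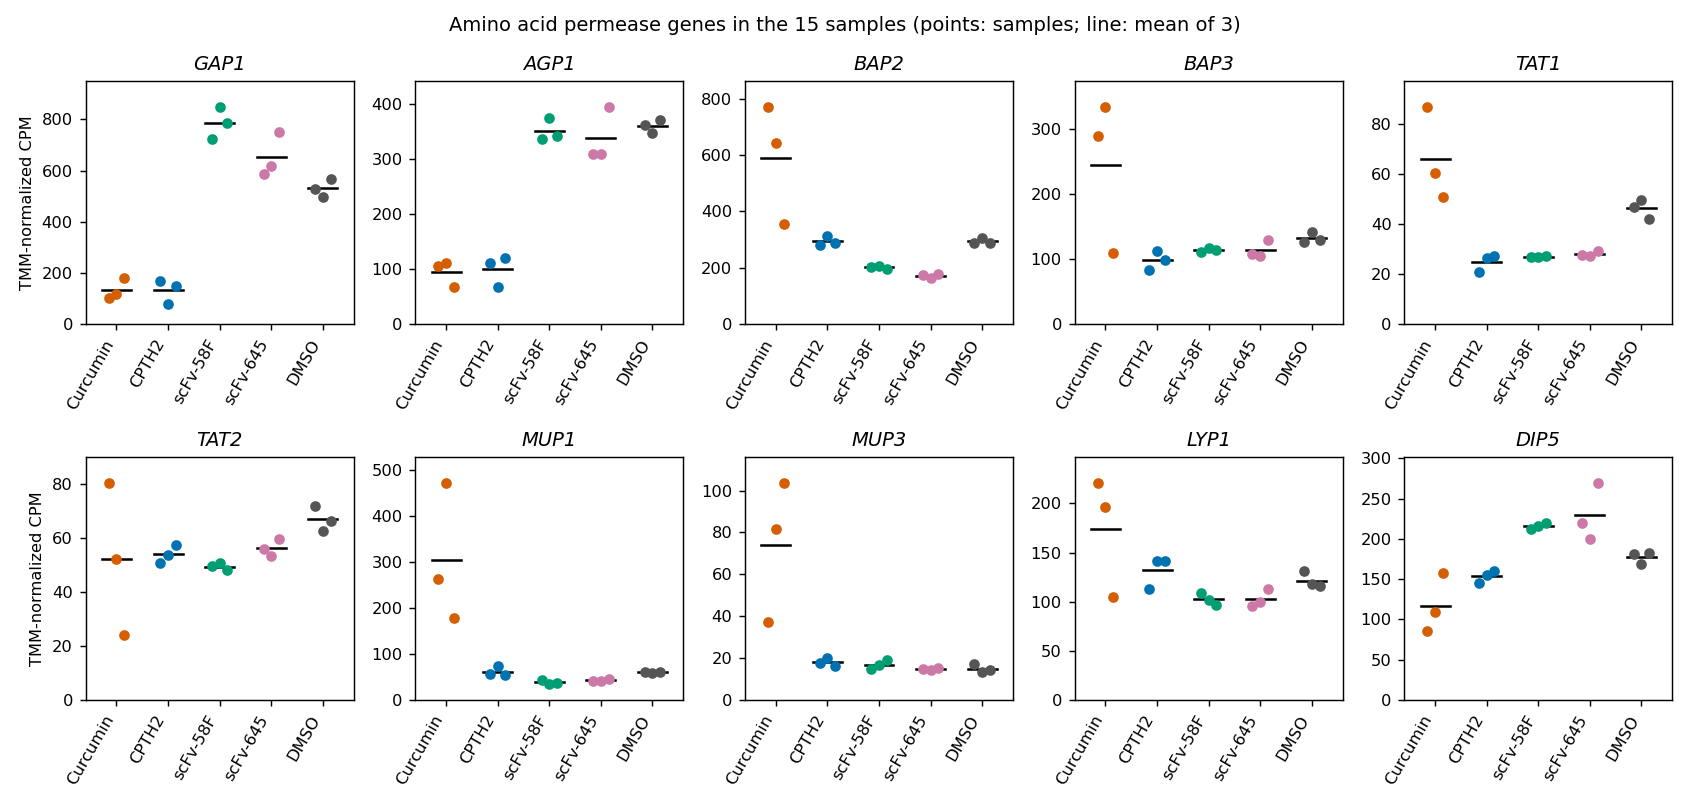
TMM-normalized CPM (vertical axes, each from 0) of the 10 permease genes in each of the 15 samples, with points for samples and a line for the mean of 3. GAP1 and AGP1 were low in all Curcumin and CPTH2 samples, MUP1 and MUP3 were high in the Curcumin samples alone, and TAT1 was lower in all CPTH2, scFv-58F and scFv-645 samples than in the DMSO samples.

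Curcumin moved the permease genes in opposite directions. The broad-range permeases GAP1 and AGP1 fell about 4-fold, the methionine permeases MUP1 and MUP3 rose about 5-fold, and BAP2 rose 1.99-fold. A gene was called when its adjusted p was below 0.05 and its fold change at least 1.5, both from the quasi-likelihood test of edgeR, adjusted by Benjamini and Hochberg's method over all 6588 genes. Of the 10 genes, 3 were called higher and 2 lower, in a comparison where 52.6% of all tested genes were called (27.9% higher and 24.7% lower), so the share called is close to that of genes at large. By adjusted p alone 5 of the 10 passed, against 55.6% of all tested genes, and the samples of 7 of the 10 did not overlap, against 69.6%.

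GAP1 had 103, 118 and 180 CPM in the Curcumin samples, against 529, 497 and 567 CPM in the DMSO samples. Every Curcumin sample was below every DMSO sample, and the log2 fold change was -2.01 ± 0.26 (SE; edgeR adjusted p = 0.00158). AGP1 had 106, 111 and 66.9 CPM in the Curcumin samples, against 361, 347 and 371 CPM in the DMSO samples. Here too the groups did not overlap, and AGP1 fell with a log2 fold change of -1.94 ± 0.24 (edgeR adjusted p = 0.00135). Without the third Curcumin sample the log2 fold changes were -2.27 for GAP1 and -1.73 for AGP1, and both calls were kept when any other single sample was left out.

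MUP1 had 263, 472 and 177 CPM in the Curcumin samples, against 61.7, 58.9 and 60.5 CPM in the DMSO samples. The Curcumin values differed widely among themselves, but the lowest was still far above the highest DMSO value, and MUP1 rose with a log2 fold change of 2.32 ± 0.37 (edgeR adjusted p = 0.00285). MUP3 had 37.0, 81.6 and 104 CPM in the Curcumin samples, against 17.1, 13.3 and 14.2 CPM in the DMSO samples. Its order among the Curcumin samples differed from that of MUP1, the third sample being the highest for MUP3 and the lowest for MUP1, and the log2 fold change was 2.31 ± 0.38 (edgeR adjusted p = 0.00316). Without the third Curcumin sample the log2 fold changes were 2.61 for MUP1 and 2.002 for MUP3, with both called.

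BAP2 had 770, 643 and 355 CPM in the Curcumin samples, against 289, 306 and 287 CPM in the DMSO samples. The groups did not overlap, although the third Curcumin sample came near to the DMSO samples, and BAP2 rose with a log2 fold change of 0.99 ± 0.30 (edgeR adjusted p = 0.0297). This call was lost when the first (log2 fold change 0.77, edgeR adjusted p = 0.0533) or second (0.92, edgeR adjusted p = 0.0887) Curcumin sample or any single DMSO sample (0.97, 1.03 and 0.98, edgeR adjusted p = 0.104, 0.0909 and 0.102) was left out. With glmTreat, edgeR's test against the fold threshold itself, 4 of the 10 genes were called in this comparison, 2 higher and 2 lower. Of all 6588 tested genes glmTreat called 2196, with 1179 higher and 1017 lower. Without the third Curcumin sample the log2 fold change of BAP2 was 1.26 and the edgeR adjusted p was 0.000348.

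The other 5 genes were not called in the pairwise fit of all samples with TMM scaling. In a single model of all 5 groups BAP3 and DIP5 were called (log2 fold changes 0.88 and -0.60, edgeR adjusted p = 0.0126 and 0.00931). BAP3, a paralogue of BAP2, had 289, 333 and 110 CPM in the Curcumin samples, against 127, 142 and 129 CPM in the DMSO samples. The third Curcumin sample alone lay below the DMSO samples. LYP1 showed the same arrangement, with 221, 197 and 105 CPM in the Curcumin samples, against 131, 118 and 115 CPM in the DMSO samples. TAT1 had 86.7, 60.5 and 50.6 CPM in the Curcumin samples, against 47.0, 49.7 and 42.0 CPM in the DMSO samples, with no overlap. DIP5 had 85.4, 109 and 157 CPM in the Curcumin samples, against 181, 168 and 183 CPM in the DMSO samples, again with no overlap. Without the third Curcumin sample these 4 genes were called as well, with log2 fold changes of 1.22 for BAP3, 0.78 for LYP1, 0.66 for TAT1 and -0.87 for DIP5, so that 6 genes were higher and 3 lower. The fit without this sample called 1926 of all 6588 tested genes higher and 1830 lower, against 1838 and 1629 with all samples. With all samples the log2 fold changes were 0.86 ± 0.39 for BAP3 and 0.51 ± 0.29 for LYP1 (edgeR adjusted p = 0.101 and 0.169). They were 0.49 ± 0.22 for TAT1 and -0.61 ± 0.25 for DIP5 (edgeR adjusted p = 0.0928 and 0.0735). TAT2 had 80.6, 52.2 and 23.96 CPM in the Curcumin samples, against 71.9, 62.8 and 66.3 CPM in the DMSO samples. Its Curcumin values enclosed those of DMSO, and the log2 fold change was -0.38 ± 0.39 (edgeR adjusted p = 0.442), against -0.02 without the third Curcumin sample (edgeR adjusted p = 0.931).

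The scaling of the libraries bears on the Curcumin values. With TMM the median log2 fold change of all tested genes was 0.03, and with library size alone it was 0.38. With library size alone 6 of the 10 genes were called higher and 2 lower, the additional calls being BAP3, TAT1 and LYP1. Of all 6588 tested genes 2521 were then called higher and 1052 lower, against 1838 and 1629 with TMM.

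**Figure D2:**
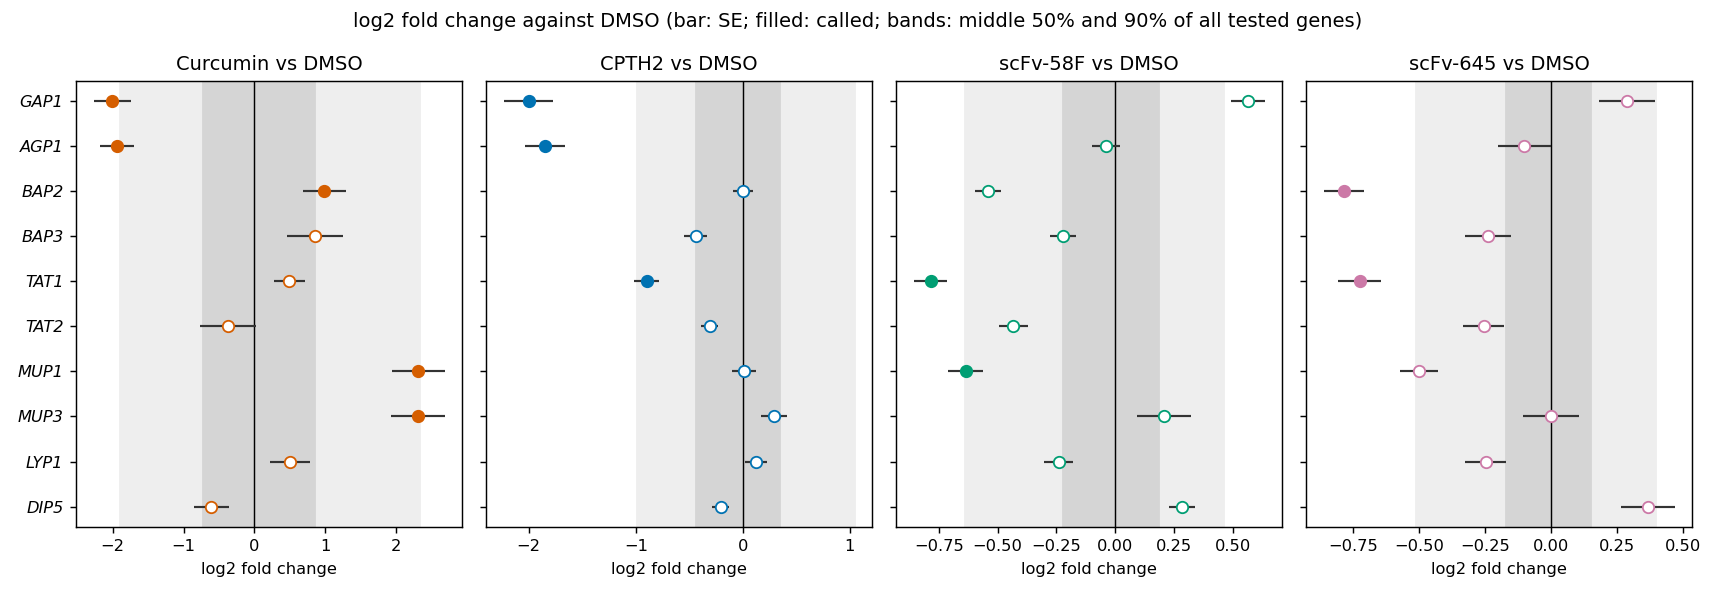
log2 fold change (horizontal axes, a different range in each panel) of the 10 permease genes in the Curcumin, CPTH2, scFv-58F and scFv-645 samples against the DMSO samples, with bars for the SE and filled points for called genes. Dark and light bands hold the middle 50% and 90% of all tested genes. GAP1 and AGP1 lay beyond the light band on the lower side with Curcumin and with CPTH2, and TAT1 lay beyond it with scFv-58F and scFv-645.

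CPTH2 lowered GAP1 and AGP1 to about the levels seen with Curcumin, and lowered TAT1, while BAP2 and the methionine permeases differed little from DMSO. Of the 10 genes, 3 were called, all lower, where 31.0% of all tested genes were called (14.1% higher and 16.9% lower). No gene was called higher by edgeR or by DESeq2, and 1 of the 10 (MUP3) was higher at an unadjusted p below 0.05. The adjusted p alone was passed by 6 of the 10, against 64.0% of all tested genes, and 6 of the 10 did not overlap, against 70.0%. GAP1 had 169, 80.9 and 148 CPM in the CPTH2 samples, against 529, 497 and 567 CPM in the DMSO samples. The second CPTH2 sample was the lowest, the groups did not overlap, and the log2 fold change was -2.001 ± 0.23 (edgeR adjusted p = 0.000106). AGP1 had 112, 67.6 and 120 CPM in the CPTH2 samples, against 361, 347 and 371 CPM in the DMSO samples. The second sample was again the lowest, and AGP1 fell with a log2 fold change of -1.85 ± 0.19 (edgeR adjusted p = 5.74e-05). TAT1 had 21.0, 26.5 and 27.3 CPM in the CPTH2 samples, against 47.0, 49.7 and 42.0 CPM in the DMSO samples. These groups did not overlap, and TAT1 fell with a log2 fold change of -0.90 ± 0.12 (edgeR adjusted p = 0.000187). These 3 calls held in each of the 6 fits that left out a single sample.

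BAP3, TAT2 and DIP5 passed the adjusted p with CPTH2 but not the fold change, with log2 fold changes of -0.44 ± 0.11, -0.31 ± 0.08 and -0.21 ± 0.08 (edgeR adjusted p = 0.00566, 0.00918 and 0.0476). For each of them the CPTH2 and DMSO samples did not overlap. BAP2 had 281, 314 and 287 CPM in the CPTH2 samples, against 289, 306 and 287 CPM in the DMSO samples. MUP1 had 55.4, 72.7 and 54.5 CPM in the CPTH2 samples, against 61.7, 58.9 and 60.5 CPM in the DMSO samples. For both genes the groups overlapped and the SE of the log2 fold change (0.09 and 0.11) was larger than the change itself (0.0019 for BAP2 and 0.0121 for MUP1), with a sign that turned in several of the fits without a single sample. MUP3 (17.6, 19.9 and 16.3 CPM in the CPTH2 samples, against 17.1, 13.3 and 14.2 CPM in the DMSO samples) and LYP1 (113, 142 and 141 CPM in the CPTH2 samples, against 131, 118 and 115 CPM in the DMSO samples) also overlapped, with log2 fold changes of 0.29 ± 0.12 and 0.12 ± 0.10 (edgeR adjusted p = 0.0651 and 0.335).

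In the scFv-58F strain TAT1 and MUP1 fell, and GAP1 was higher by slightly less than the fold threshold. Of the 10 genes 2 were called, both lower, where 7.41% of all tested genes were called (1.97% higher and 5.43% lower). No gene was called higher by edgeR or by DESeq2, and 2 of the 10 (GAP1 and DIP5) were higher at an unadjusted p below 0.05. Without the fold threshold 8 of the 10 passed, against 49.0% of all tested genes, and 8 did not overlap, against 57.5%. TAT1 had 26.8, 26.9 and 27.2 CPM in the scFv-58F samples, against 47.0, 49.7 and 42.0 CPM in the DMSO samples. The scFv-58F values were close together and well below all DMSO values, with a log2 fold change of -0.79 ± 0.07 (edgeR adjusted p = 1.57e-05). MUP1 had 43.5, 35.5 and 37.9 CPM in the scFv-58F samples, against 61.7, 58.9 and 60.5 CPM in the DMSO samples. Its groups did not overlap either, and its log2 fold change was -0.64 ± 0.07 (edgeR adjusted p = 5.76e-05), but without the second scFv-58F sample the change of -0.57 was under the fold threshold and 1 gene was called. In a single model of all 5 groups the call of MUP1 was lost (-0.63, edgeR adjusted p = 0.19) and that of TAT1 was kept. With glmTreat 0 of the 10 were called, where 94 of all 6588 tested genes were called.

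GAP1 had 723, 848 and 786 CPM in the scFv-58F samples, against 529, 497 and 567 CPM in the DMSO samples. All scFv-58F samples were above all DMSO samples, and the log2 fold change of 0.56 ± 0.07 (edgeR adjusted p = 9.42e-05) corresponds to 1.48-fold, so GAP1 was not called. It was called when the first scFv-58F sample or the third DMSO sample was left out (log2 fold change 0.62 in each). BAP2 had 202, 207 and 198 CPM in the scFv-58F samples, against 289, 306 and 287 CPM in the DMSO samples, a log2 fold change of -0.54 ± 0.05 (edgeR adjusted p = 2.27e-05) that was likewise just under the threshold. TAT2, LYP1 and BAP3 (log2 fold changes -0.43, -0.24 and -0.22) and DIP5 (0.28) passed the adjusted p only, while AGP1 (-0.04 ± 0.06) and MUP3 (0.21 ± 0.11) did not pass it (edgeR adjusted p = 0.622 and 0.157).

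The strain expressing the unrelated intrabody scFv-645 had lower BAP2 and TAT1. Of the 10 genes 2 were called, both lower, where 4.02% of all tested genes were called (1.32% higher and 2.70% lower). No gene was called higher by edgeR or by DESeq2, and 2 of the 10 (GAP1 and DIP5) were higher at an unadjusted p below 0.05. By adjusted p alone 6 of the 10 passed, against 22.9% of all tested genes, and 7 did not overlap, against 41.5%. BAP2 had 176, 162 and 176 CPM in the scFv-645 samples, against 289, 306 and 287 CPM in the DMSO samples. The groups were well apart, with a log2 fold change of -0.78 ± 0.08 (edgeR adjusted p = 0.000105). TAT1 had 27.8, 27.4 and 29.4 CPM in the scFv-645 samples, against 47.0, 49.7 and 42.0 CPM in the DMSO samples. The log2 fold change was -0.73 ± 0.08 (edgeR adjusted p = 0.000229), and both calls held whichever single sample was left out. Both were lost in a single model of all 5 groups (log2 fold changes -0.78 for BAP2 and -0.71 for TAT1, edgeR adjusted p = 0.102 and 0.0691). With glmTreat 0 of the 10 were called, where 22 of all 6588 tested genes were called. MUP1 had 41.3, 41.4 and 46.0 CPM in the scFv-645 samples, against 61.7, 58.9 and 60.5 CPM in the DMSO samples, a log2 fold change of -0.50 ± 0.07 (edgeR adjusted p = 0.000976) under the fold threshold.

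GAP1 had 588, 619 and 749 CPM in the scFv-645 samples, against 529, 497 and 567 CPM in the DMSO samples. The samples did not overlap, but the change of 0.29 ± 0.11 on the log2 scale did not pass the test (edgeR adjusted p = 0.0697). DIP5 (0.37 ± 0.10), TAT2 (-0.26 ± 0.08) and LYP1 (-0.25 ± 0.08) passed the adjusted p only. AGP1 (-0.10 ± 0.10), BAP3 (-0.24 ± 0.09) and MUP3 (a log2 fold change of -0.0007, whose sign turned with other scalings) did not pass it (edgeR adjusted p = 0.496, 0.0697 and 0.996).

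Direct comparisons tested whether the conditions differed from each other. Between the strains scFv-58F and scFv-645 none of the 10 genes was called by edgeR or by DESeq2, where 2.79% of all tested genes were called by edgeR (0.668% higher and 2.13% lower). The adjusted p alone was passed by 1 of the 10, against 21.5% of all tested genes, and 3 did not overlap, against 38.9%. At an unadjusted p below 0.05, 2 of the 10 were higher and 1 lower in scFv-58F. GAP1 (786 ± 62.3 CPM in scFv-58F and 652 ± 85.4 CPM in scFv-645, SD, n = 3 each) had a log2 fold change of 0.27 ± 0.10 (edgeR adjusted p = 0.0916). BAP2 (202 ± 4.89 CPM in scFv-58F and 172 ± 7.94 CPM in scFv-645) passed the adjusted p alone with 0.23 ± 0.07 (edgeR adjusted p = 0.0298). For TAT1 and MUP1, called for scFv-58F against DMSO, the log2 fold changes between the strains were -0.07 ± 0.07 and -0.14 ± 0.09, so the lower MUP1 in scFv-58F was not shown to differ from that in scFv-645. These intervals leave room for small differences.

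MUP1, MUP3, TAT1, BAP3 and BAP2 were higher with Curcumin than with CPTH2. Of the 10 genes these 5 were called higher and 0 lower, where 50.3% of all tested genes were called (26.7% higher and 23.6% lower). With both directions pooled the share called is close to that of genes at large, but the calls were all higher. By adjusted p alone 5 of the 10 passed, against 51.8% of all tested genes, and 4 did not overlap, against 64.0%. MUP1 was higher by 2.33 ± 0.38 on the log2 scale (304 ± 152 CPM with Curcumin and 60.8 ± 10.3 CPM with CPTH2, edgeR adjusted p = 0.00275). MUP3 was higher by 2.05 ± 0.37 (74.1 ± 34.0 CPM with Curcumin and 18.0 ± 1.81 CPM with CPTH2, edgeR adjusted p = 0.00368). TAT1 was higher by 1.404 ± 0.25 (65.9 ± 18.6 CPM with Curcumin and 24.95 ± 3.42 CPM with CPTH2, edgeR adjusted p = 0.00334). BAP3 (1.32 ± 0.40) and BAP2 (1.01 ± 0.32) were called as well (edgeR adjusted p = 0.0264 and 0.0312), although BAP3 overlapped between the groups. Against DMSO, TAT1 and BAP3 were not called with Curcumin (0.49 ± 0.22 and 0.86 ± 0.39), and both were negative with CPTH2 (-0.90 ± 0.12 and -0.44 ± 0.11).

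The calls of BAP2 and BAP3 were lost in most fits with a sample less, while the log2 fold changes stayed positive. BAP2 was lost without the first (log2 fold change 0.78) or second (0.93) Curcumin sample or any CPTH2 sample (0.97, 1.06 and 0.99), and BAP3 without the second Curcumin sample (1.02) or any CPTH2 sample (1.22, 1.43 and 1.33). Without the second Curcumin sample or any CPTH2 sample, 3 of the 10 genes were called, as also with glmTreat. Of all 6588 tested genes 2399 were called without the second Curcumin sample. The number was 2189, 2277 and 2355 without each CPTH2 sample, and 2040 with glmTreat. Without the third Curcumin sample 7 of the 10 were called, LYP1 (0.67) and DIP5 (-0.66) being added, where 3660 of all tested genes were called (1851 higher and 1809 lower). The log2 fold changes were then 2.60 for MUP1, 1.73 for MUP3, 1.56 for TAT1, 1.67 for BAP3 and 1.27 for BAP2. TAT2 was not called, with -0.05 with all samples and 0.30 without the third Curcumin sample (edgeR adjusted p = 0.924 and 0.192). GAP1 (0.02 ± 0.33) and AGP1 (-0.07 ± 0.29), the genes that fell with both drugs, did not differ beyond their spread between Curcumin and CPTH2, with signs that turned without the third Curcumin sample (-0.26 and 0.13), and for AGP1 also with library size scaling (0.25).

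GAP1 and AGP1 were lower, and MUP1 was higher, with CPTH2 than with scFv-58F. Of the 10 genes 3 were called, 1 higher and 2 lower with CPTH2, where 27.5% of all tested genes were called (13.9% higher and 13.6% lower). By adjusted p alone 6 of the 10 passed, against 59.8% of all tested genes, and 6 did not overlap, against 67.0%. GAP1 (132 ± 45.9 CPM with CPTH2 and 786 ± 62.3 CPM with scFv-58F) had a log2 fold change of -2.56 ± 0.24 (edgeR adjusted p = 3.91e-05). AGP1 (99.7 ± 28.1 CPM with CPTH2 and 351 ± 20.9 CPM with scFv-58F) had -1.81 ± 0.19 (edgeR adjusted p = 6.64e-05). MUP1 (60.8 ± 10.3 CPM with CPTH2 and 39.0 ± 4.12 CPM with scFv-58F) was higher by 0.65 ± 0.13 (edgeR adjusted p = 0.00174), a call lost, so that 2 genes were called, without the second CPTH2 sample (0.51) or the second scFv-58F sample (0.58). TAT1, lower than in DMSO in both, differed between them by -0.11 ± 0.11 (edgeR adjusted p = 0.403).

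**Figure D3:**
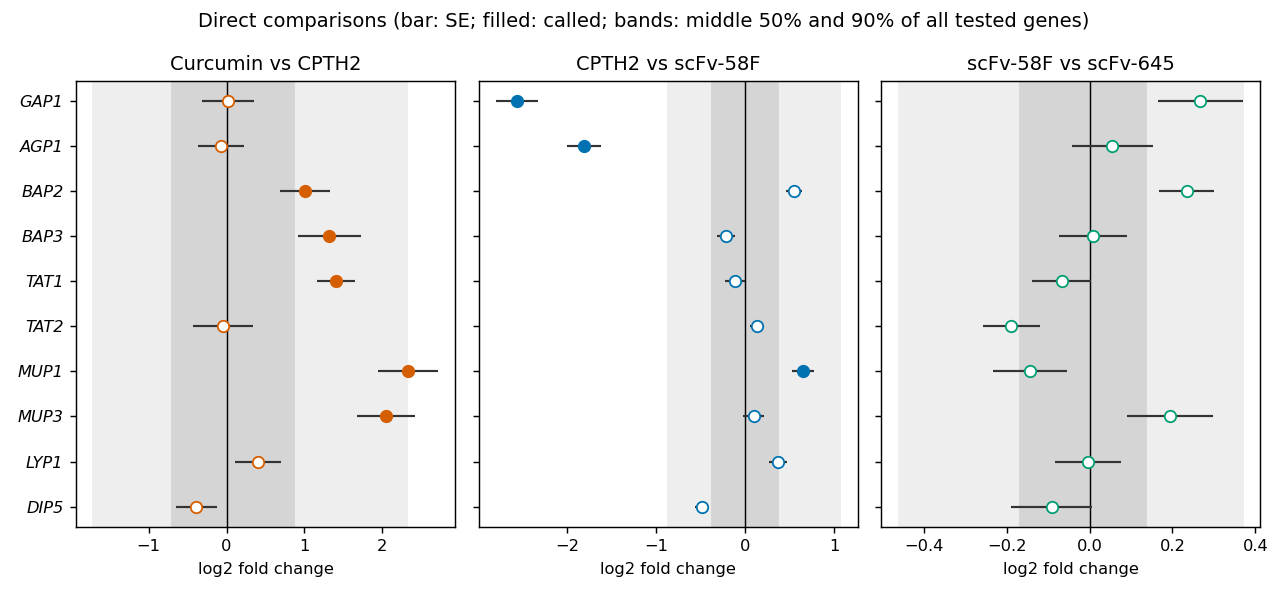
log2 fold change (horizontal axes, a different range in each panel) of the 10 permease genes between conditions other than DMSO, with bars for the SE, filled points for called genes and bands for the middle 50% and 90% of all tested genes. Curcumin exceeded CPTH2 for 5 genes, CPTH2 was far below scFv-58F for GAP1 and AGP1, and no gene was called between scFv-58F and scFv-645.

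Over the samples, GAP1 varied with AGP1 and DIP5 and against BAP2, MUP1 and LYP1. Pearson's r of log2 CPM over the 15 samples was 0.945 for GAP1 and AGP1, and 0.976 over the 12 samples without Curcumin. It was 0.828 for GAP1 and DIP5 over 15 samples and 0.795 over 12. The r of GAP1 was -0.768 with BAP2, -0.710 with MUP1 and -0.729 with LYP1 over 15 samples, and -0.655, -0.699 and -0.735 over 12. With BAP3 and TAT1 it was -0.363 and -0.344 over 15 samples but 0.489 and 0.285 over 12. BAP2 and MUP1 had r = 0.914 over 15 samples and 0.860 over 12, and BAP2 and DIP5 had r = -0.947 over 15 and -0.831 over 12. MUP1 and MUP3 had r = 0.869 over 15 samples but 0.136 over the 12 without Curcumin, and BAP2 and BAP3 had 0.788 and 0.079, so these likenesses rest on the Curcumin samples. The samples fall into conditions and share libraries, and these values describe them without a test. BAP2 and TAT1, the neighbouring genes, had r = 0.808 over 15 samples and 0.394 over 12.

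The genes most like GAP1, whose log2 fold change against DMSO was the lowest of any of the 10, were HTA1 (r = 0.983), HTA2 (r = 0.979) and HTB2 (r = 0.977), which encode the histones H2A and H2B. Over the 12 samples without Curcumin their r was 0.981, 0.974 and 0.977. HTA1 averaged 499 CPM with Curcumin, 524 CPM with CPTH2, 1424 CPM with scFv-58F and 1322 CPM with scFv-645, against 1112 CPM with DMSO, and HTA2 averaged 67.1, 93.5, 669 and 651 CPM in these conditions, against 548 CPM with DMSO. The coding sequences of HTA1 and HTA2 are alike, and reads that fit several positions were shared between them, so their separate levels are uncertain. The genes most like MUP1, whose log2 fold change was the highest, were MAK10 (r = 0.990), which encodes a subunit of an N-terminal acetyltransferase, KIP3 (r = 0.989), a kinesin, and SAP190 (r = 0.987), a partner of the phosphatase Sit4. Over the 12 samples without Curcumin their r was 0.950, 0.892 and 0.932. MAK10 averaged 121 CPM with Curcumin, against 27.3 CPM with DMSO.

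**Figure D4:**
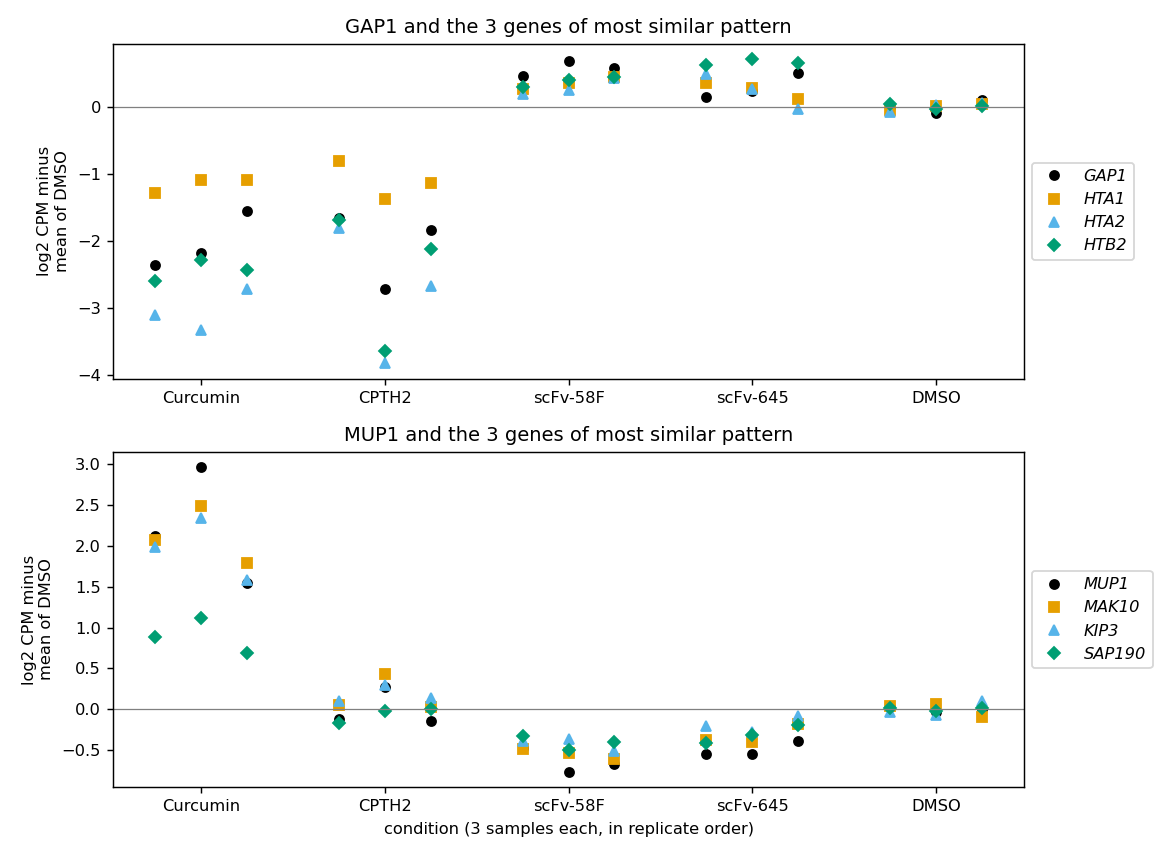
log2 CPM minus the mean of the DMSO samples (vertical axes) for GAP1 with HTA1, HTA2 and HTB2 (upper panel) and MUP1 with MAK10, KIP3 and SAP190 (lower panel), with a point for each of the 15 samples by condition. The upper genes were low in every Curcumin and CPTH2 sample, and the lower genes were high in the Curcumin samples alone.

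Other genes of amino acid uptake were taken as lists by their known roles, and each list is described by its counts and its median. Of all tested genes 27.9% were called higher and 24.7% lower with Curcumin, and 14.1% higher and 16.9% lower with CPTH2. Of 11 other plasma membrane transporters 3 rose and 0 fell with Curcumin (median log2 fold change 0.36, against 0.03 over all tested genes). With all samples MMP1, the S-methylmethionine permease, had the largest rise in the list, with 90.8 ± 46.7 CPM with Curcumin and 16.0 ± 0.859 CPM with DMSO (log2 fold change 2.50 ± 0.40, edgeR adjusted p = 0.00278). PTR2, the peptide transporter, rose with a log2 fold change of 2.24 ± 0.18 (edgeR adjusted p = 0.000612), and without the third Curcumin sample its rise of 2.28 was larger than that of MMP1 (2.06). With CPTH2 3 of the 11 rose and 1 fell (median -0.03, against -0.03), MMP1 rising by 0.94 ± 0.12 and CAN1, the arginine permease, falling with a log2 fold change of -0.61 ± 0.08 (edgeR adjusted p = 0.000174 and 0.000157). With scFv-58F 0 rose and 1 fell, HIP1, the histidine permease, with a log2 fold change of -0.65 ± 0.07 (edgeR adjusted p = 2.67e-05), and with scFv-645 none of the 11 was called by edgeR or DESeq2.

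The SPS sensor and its partners are the route by which external amino acids switch on BAP2, BAP3, TAT1 and AGP1. Of 10 genes 6 rose and 0 fell with Curcumin by edgeR (median 0.66), and 6 rose and 1 fell by DESeq2. ASI3, which encodes part of the inner nuclear membrane complex that restrains Stp1 and Stp2, rose the most (log2 fold change 1.60 ± 0.33, edgeR adjusted p = 0.00667). The other ASI genes of the list, ASI1 and ASI2, were not called (-0.70 ± 0.27 and 0.41 ± 0.54, edgeR adjusted p = 0.0613 and 0.548). Without the third Curcumin sample both were negative (-0.46 and -0.57, edgeR adjusted p = 0.0438 and 0.00411). GRR1, an F-box subunit of a ubiquitin ligase, rose with 1.32 ± 0.16 (edgeR adjusted p = 0.00132) and was the highest of the list without the third Curcumin sample. PTR2 and GRR1 were named after their values were seen. With CPTH2 and with scFv-58F none of the 10 was called by edgeR or DESeq2 (medians 0.21 and -0.06), and with scFv-645 1 fell, ASI1, with a log2 fold change of -0.62 ± 0.07 (edgeR adjusted p = 0.000259). Of 6 regulators of nitrogen use and general control, 2 rose with Curcumin (median 0.29), DAL80, a GATA repressor, the most (1.42 ± 0.32, edgeR adjusted p = 0.010). With CPTH2 1 of the 6 fell, GZF3, another GATA repressor, with a log2 fold change of -1.06 ± 0.11 (edgeR adjusted p = 6.58e-05). With scFv-58F and scFv-645 none of the 6 was called by edgeR or DESeq2.

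Of 11 genes of permease folding and traffic 3 rose with Curcumin (median 0.46), BUL1, an adaptor of the ubiquitin ligase Rsp5 that acts in the removal of Gap1, the most, with 254 ± 78.7 CPM with Curcumin and 56.3 ± 1.62 CPM with DMSO (log2 fold change 2.16 ± 0.27, edgeR adjusted p = 0.00134). With CPTH2 1 of the 11 fell, SHR3, the chaperone that packages permeases in the endoplasmic reticulum (-0.62 ± 0.12, edgeR adjusted p = 0.00203). Of 15 vacuolar transporters 3 rose and 5 fell with Curcumin (median -0.23). VBA3 rose the most (1.79 ± 0.21) and RTC2, a vacuolar exporter of basic amino acids, fell the most (-2.43 ± 0.47, edgeR adjusted p = 0.00114 and 0.00548). VBA3 had the lowest level of the list in the DMSO samples, with 2.807 ± 0.265 CPM, against 9.895 ± 0.925 CPM with Curcumin. With CPTH2 3 of the 15 rose and 4 fell (median -0.10), ATG22 rising the most (0.84 ± 0.09) and VBA4 falling the most (-0.97 ± 0.11; edgeR adjusted p = 7.96e-05 and 8.3e-05). Neither list held a called gene with scFv-58F or scFv-645, by edgeR or DESeq2.

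Without the third Curcumin sample, a setting chosen for the lists after the data were seen, 15 of the 17 list genes that rose with Curcumin and 4 of the 5 that fell were still called. The named ones kept their calls, with log2 fold changes of 2.06 for MMP1, 2.28 for PTR2, 1.26 for ASI3, 1.35 for GRR1, 1.05 for DAL80, 2.39 for BUL1, 1.85 for VBA3 and -2.07 for RTC2. In this setting 1926 of all 6588 tested genes were called higher and 1830 lower (median -0.01). Of the lists, 4 of the 11 other plasma membrane transporters (median 0.48) and 4 of the 10 SPS genes (median 0.52) rose. So did 3 of the 6 regulators (median 0.49) and 3 of the 11 genes of folding and traffic (median 0.39). No gene of these lists was called lower. Of the vacuolar transporters 4 rose and 5 fell (median -0.44). With library size scaling the median of the vacuolar list with Curcumin turned to 0.12, against 0.38 over all tested genes. With this scaling 25 genes of the 5 lists rose and 3 fell, and of all 6588 tested genes 2521 rose and 1052 fell.

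**Figure D5:**
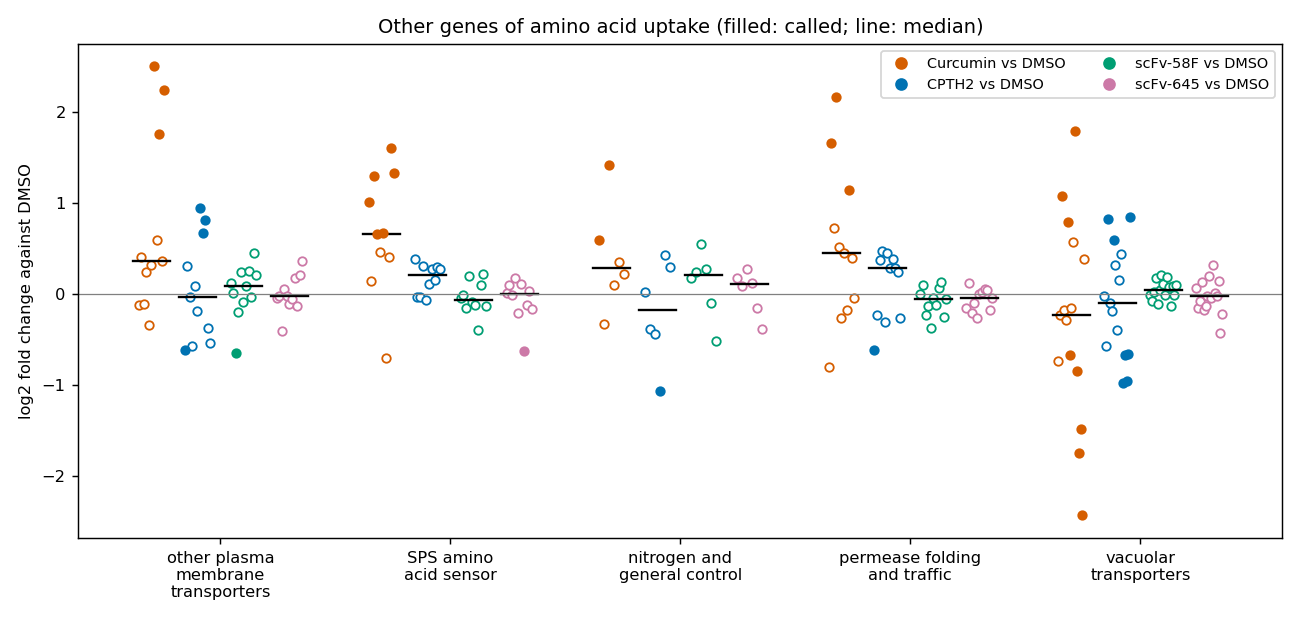
log2 fold change against DMSO (vertical axis) of the genes of 5 lists of amino acid uptake and storage in the Curcumin, CPTH2, scFv-58F and scFv-645 samples, with filled points for called genes and a line for the median of the list. Curcumin gave the widest spread in every list, with 17 called genes higher and 5 lower.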

How the data were processed

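Total RNA from 15 cultures, 3 biological replicates of 5 conditions, was sequenced by the authors with a stranded mRNA kit in 1 lane. Conditions and replicate numbers came from the sample labels. The authors trimmed reads with cutadapt, mapped them with segemehl to sacCer3 and counted them on coding regions with NGSutils 0.5.9, without regard to strand per the file headers and with reads of several positions shared. The deposited count is a whole number of reads per gene. The deposited CPM column is that count scaled by the authors to mapped reads, and the deposited RPKM column divides it by length. Only the counts were analysed.

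Genes reaching 10 counts in 3 or more of 15 samples were tested with edgeR 4.0.16 (R 4.3.3; TMM, quasi-likelihood F test, Benjamini-Hochberg over 6588 genes) in pairwise fits of 3 and 3 samples. A call needed an adjusted p under 0.05 together with a fold change reaching 1.5. The SE is the log2 fold change over the root of F. CPM values shown use TMM over all 15 samples, so ratios of means differ slightly from the fitted values. Levels between genes are compared per kb of coding length. The tests were checked on simulated counts.

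All 10 members were named, of each list the called gene with the largest rise and fall against DMSO, and 3 genes of like pattern for the members with the highest and lowest log2 fold change against DMSO. Members, lists and motifs were chosen with earlier results of these data known. For genes at R64 coordinates, 6008 of 6692 IDs matched RefSeq and 6000 of these had identical coordinates. Alternatives were DESeq2 1.42.0, other scalings and filters, a single model of all 5 groups, glmTreat (edgeR's test against the fold threshold), a replicate block and leaving out each sample.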

Additional observations from a re-analysis of the deposited data

How the results depend on the processing

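Of 910 log2 fold changes of the 10 genes over the alternatives and comparisons, 841 kept direction and call, 23 lost the call, 15 gained it and 31 turned in sign, all of the last in genes that were not called. The counts of called genes were, against DMSO, 5 with Curcumin, 3 with CPTH2, 2 in scFv-58F and 2 in scFv-645, and in the direct comparisons 0 for scFv-58F against scFv-645, 5 for Curcumin against CPTH2 and 3 for CPTH2 against scFv-58F. Library size scaling gave 8 for Curcumin against DMSO (6 higher and 2 lower, against 3 and 2). By adjusted p alone the counts were 6 with CPTH2, 8 in scFv-58F and 6 in scFv-645 against DMSO, 1 for scFv-58F against scFv-645 and 6 for CPTH2 against scFv-58F. A single model of the 5 groups gave 1 in scFv-58F and 0 in scFv-645 against DMSO, and glmTreat gave 0 for each of these and 3 for Curcumin against CPTH2. The cause of the shifts with scaling and with the single model was not tested. The other 2 settings drop the fold threshold or test against it. Leaving out a single sample gave 4 to 9 with Curcumin, 3 to 3 with CPTH2, 1 to 3 in scFv-58F and 2 to 2 in scFv-645 against DMSO, 0 to 0 for scFv-58F against scFv-645, 3 to 7 for Curcumin against CPTH2 and 2 to 3 for CPTH2 against scFv-58F.

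The replicate numbers did not pair the samples (in no comparison did every same-numbered pair correlate above 0.1), although between Curcumin and CPTH2 each of the 3 samples correlated best with its own number. With the replicate block 4, 3, 2, 2, 0, 4 and 3 genes were called in these comparisons, BAP2 being lost for Curcumin against DMSO (0.92) and against CPTH2 (0.94).

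Signs turned as follows. Against DMSO, BAP2 with CPTH2 was -0.0022 with a filter of 10 counts in every sample, and MUP3 in scFv-645 was 3e-04 with DESeq2 size factors and 0.0129 with library size. For scFv-58F against scFv-645, LYP1 was 0.0174 with DESeq2 and with its size factors, and AGP1 was -0.0187 and BAP3 -0.0634 with library size. For Curcumin against CPTH2, AGP1 was 0.2492 and TAT2 0.268 with library size. Leaving out a single sample gave, for CPTH2 against DMSO, -0.04 to 0.0539 for BAP2 and -0.129 to 0.1006 for MUP1, and for scFv-645 against DMSO -0.085 to 0.0946 for MUP3. It gave, for scFv-58F against scFv-645, -0.0365 to 0.1112 for BAP3, -0.0536 to 0.0696 for LYP1 and -0.1705 to 0.0404 for DIP5. For Curcumin against CPTH2 the ranges were -0.2593 to 0.2215 for GAP1, -0.2818 to 0.1282 for AGP1 and -0.4865 to 0.2998 for TAT2, and for CPTH2 against scFv-58F the range of TAT1 was -0.1877 to 0.0035.

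Among all tested genes the single model called 230 in scFv-58F and 50 in scFv-645, against 488 and 265 in the pairwise fits, and library size scaling called 2521 higher and 1052 lower with Curcumin, against 1838 and 1629 with TMM. Each condition had 3 samples, and for each of the 10 genes the SE was larger in both comparisons of Curcumin than in the other comparisons.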
